A study of Equus caballus with 68 samples.

Results

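The comparison described here is the first one after the start of culture, between bone marrow mononuclear cells (BMNC) held for 48 hours in inflamed synovial fluid (ISF) and the same cells held for 48 hours in healthy synovial fluid (SF). It rests on 14 of the 68 libraries of the series, 7 per fluid, and every one of its 7 horses gave both an ISF and an SF library, so that the fluids were compared within horses. The animals were adult Thoroughbreds of 3 to 9 years. Each library came from the cells of 1 horse in 1 fluid. Both groups share the cell source, the culture and the origin of the fluid: cells and fluid were autologous, meaning that they came from the same animal, and the fluid was used undiluted and free of cells. ISF was drawn from radiocarpal joints in which synovitis had been induced with lipopolysaccharide, and SF from middle carpal joints left normal, so that the state of the fluid and the joint it came from cannot be told apart. The groups model endotoxin synovitis only, in cultured marrow cells with no synovial tissue around them. The fluids were compared again at 96 hours and at 6 days in the same 7 horses (14 libraries at each time), to follow the genes that differed at 48 hours, and the cells before culture (0 hours) give the starting level.

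BMNC are the mixture of monocytes, lymphocytes, immature granulocytes and progenitors that remains after marrow is freed of red cells and most mature granulocytes. In synovial fluid, the monocytes and their precursors attach and become macrophages, the cells that line the joint, clear debris and, depending on the signals around them, start or end inflammation. Inflamed joint fluid carries plasma proteins, cytokines and products of dying neutrophils, and monocytes that meet such fluid are known for making chemokines, which call in more leukocytes, and for taking up lipid.

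Expression was measured by RNA sequencing of whole cultures and is given as GeTMM, a measure of reads per gene length with TMM scaling among libraries. A log2 fold change is the mean difference between ISF and SF of a horse in log2(GeTMM + 1), which understates the change of genes near 0, with its standard error (SE) from limma (n = 7 horses). The FDR is the Benjamini-Hochberg adjusted p of the same fit, taken over all genes tested. A gene is called, and is referred to as a differentially expressed gene (DEG), at an FDR under 0.05. Reads on genes were 15.65 to 35.97 M per library in SF (median 22.32 M) and 19.06 to 26.32 M in ISF (median 19.67 M), and 1 read on a gene of 1 kilobase was worth 0.0337 to 0.0755 GeTMM. Each of the 14 libraries at 48 hours resembled its own horse more than any other in 200 genes that separate the horses at the other times. At 96 hours, 14 of 16 libraries did. The ISF library labelled Dealings matched Dreamer there, and the one labelled Dreamer matched Dealings, so the main counts and the named tests that pair horses at that time are also given without both. The mean difference over the 7 horses is the same under either assignment of this pair of libraries. In bulk cultures, fewer cells of a type and less RNA per cell cannot be told apart.

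Of 12636 genes tested, 1833 (14.5%) differed between the fluids at 48 hours, 814 (6.44%) higher and 1019 (8.06%) lower in ISF. 3999 genes had an unadjusted p under 0.05. Most differences were modest, with a median absolute log2 fold change of 0.51 among the DEGs, and 185 DEGs changed by at least 1 on the log2 scale, 106 of them higher and 79 lower. The direction was the same in all 7 horses for 1262 DEGs, and for 1716 of all genes tested (13.6%). Complete separation was rarer: in 149 genes (1.18%) the 7 ISF values and the 7 SF values did not overlap. The number of DEGs depended on the pairing and on single horses. Without the term for horse 415 genes were called, 260 higher and 155 lower, all 415 of them among the DEGs of the paired fit, and 1 fit of all 68 libraries called 254 without the term and 665 with it. Leaving out 1 horse gave between 800 genes (without Dreamer) and 2098 (without Dealings), and the count also fell by more than 1.5 times without Catnip (886), Lurie (1006) or Ollie (1058). Of the 157 DEGs followed one by one, 97 lost the call without the term for horse, 117 in the fit of 68 libraries without it, and 123 under at least 1 alternative. For lists with 5 or more members called in 1 direction, the lowest and highest counts without 1 horse and the count without the term for horse stand in brackets where they moved by more than 1.5 times.

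**Figure D1:**
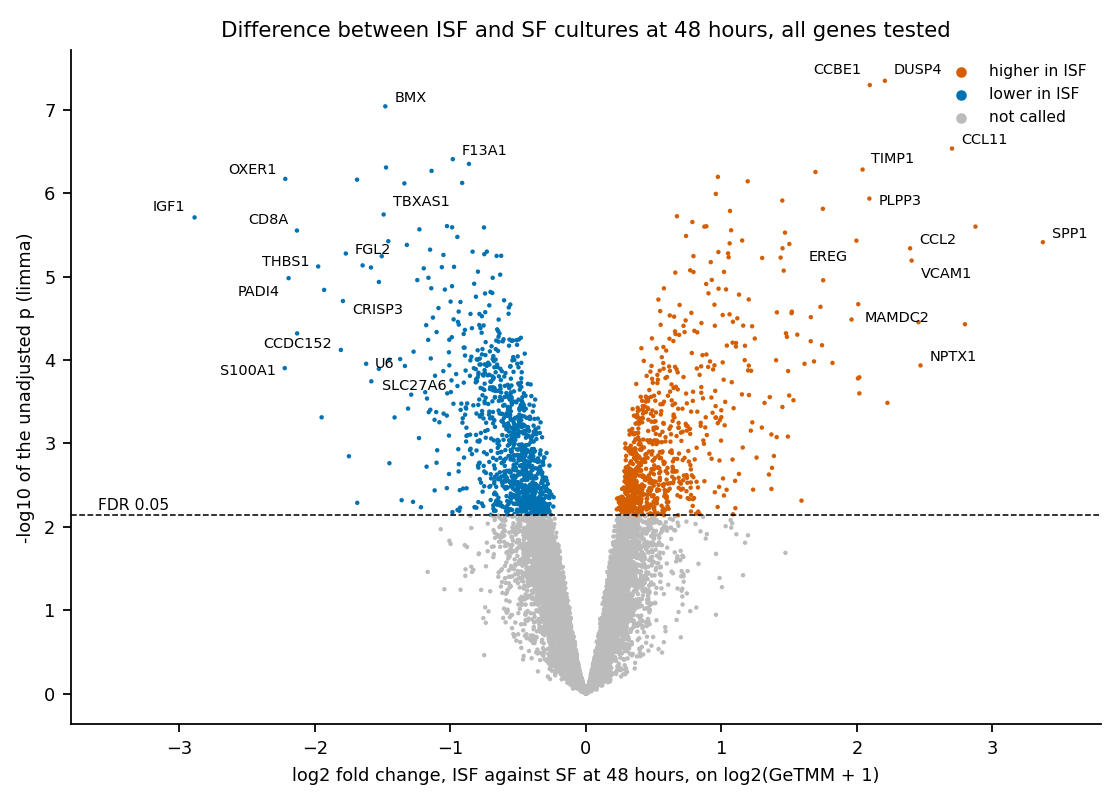
Log2 fold change of ISF against SF at 48 hours (horizontal axis) and -log10 of the unadjusted p of limma (vertical axis) for each of the 12636 genes tested, 7 horses per fluid; orange points are called higher in ISF, blue points lower, grey points are not called, and the dashed line marks the FDR of 0.05. SPP1 lies farthest to the right at 3.37 and IGF1 farthest to the left at -2.89 among the named genes, and DUSP4 and CCBE1 have the lowest p.

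Among the genes with the highest fold change in ISF were several secreted proteins. SPP1 encodes osteopontin, a secreted phosphoprotein of bone and of activated macrophages that binds integrins and CD44. It stood at 342 to 3564 GeTMM in SF (median 1441) and 8860.4 to 20341 in ISF (median 14535), so that the lowest ISF library was above the highest SF library, and it was 10.4-fold higher (log2 fold change 3.37 ± 0.39 SE, FDR = 0.00119). Before culture it averaged 11.6 GeTMM. The chemokines CCL2, CCL11 and CCL8 were among them too. CCL2 encodes the main attractant of monocytes and ranged over 192 to 577 GeTMM in SF (median 239) and 839.6 to 4899 in ISF (median 1142), without overlap (log2 fold change 2.39 ± 0.28 SE, FDR = 0.00124). CCL11, the eosinophil attractant eotaxin, was a low-level transcript that stood at 1.61 to 7.26 GeTMM in SF (median 2.14) and 9.34 to 100.1 in ISF (median 21.8), again without overlap (log2 fold change 2.7 ± 0.24 SE, FDR = 0.000601). CCL8 is another monocyte attractant. It stood at 6.22 to 25.7 GeTMM in SF (median 22.8) and 19.1 to 236 in ISF (median 69.1), where the fluids overlapped although ISF was higher in 7 of 7 horses (log2 fold change 1.96 ± 0.28 SE, FDR = 0.0031).

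Secreted or matrix-bound products beyond the chemokines were also among the highest. TIMP1, an inhibitor of matrix metalloproteinases, stood at 55.8 to 107 GeTMM in SF (median 76.8) and 218 to 801 in ISF (median 328) and did not overlap between the fluids (log2 fold change 2.04 ± 0.19 SE, FDR = 0.000601). The collagen- and calcium-binding protein CCBE1, known for its part in lymphatic growth, was near the lower limit of measurement in SF. It stood at 0.482 to 2.96 GeTMM in SF (median 1.98) and 5.25 to 20.6 in ISF (median 7.96), without overlap (log2 fold change 2.10 ± 0.15 SE, FDR = 0.000318). EREG encodes epiregulin, a ligand of the EGF receptor. It stood at 0 to 12.4 GeTMM in SF (median 2.57) and 1.06 to 28.5 in ISF (median 18.5), with overlap, and was higher in 7 of 7 horses (log2 fold change 2.00 ± 0.23 SE, FDR = 0.00119). Its relative AREG, amphiregulin, was a low-level transcript that also was higher in ISF, with a median of 0.458 GeTMM in SF and 3.62 in ISF (log2 fold change 1.52 ± 0.22 SE, FDR = 0.00289). NPTX1 encodes a secreted pentraxin best known from neurons and stood at 1.38 to 4.27 GeTMM in SF (median 2.39) and 5.21 to 67.3 in ISF (median 18.2), without overlap (log2 fold change 2.47 ± 0.42 SE, FDR = 0.00571). MAMDC2, a protein of the extracellular matrix, did not overlap either, at 0.581 to 3.04 GeTMM in SF (median 1.2) and 3.63 to 13.8 in ISF (median 9.47) (log2 fold change 2.01 ± 0.28 SE, FDR = 0.00256). Without the term for horse, EREG was not called (FDR = 0.103), and TIMP1, CCBE1, AREG, NPTX1 and MAMDC2 were called either way.

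Genes of the cell surface and of signalling completed the group. VCAM1 encodes an adhesion molecule that binds integrins of leukocytes and is also made by marrow macrophages. It spread widely between horses, over 1.2 to 18 GeTMM in SF (median 2.73) and 3.27 to 194 in ISF (median 32.9), and was higher in ISF in every horse although the fluids overlapped (log2 fold change 2.40 ± 0.29 SE, FDR = 0.00131). PLPP3 encodes a surface phosphatase that breaks down lysophosphatidic acid. It stood at 1.88 to 16.7 GeTMM in SF (median 7.09) and 10.1 to 67.1 in ISF (median 36.6) (log2 fold change 2.09 ± 0.21 SE, FDR = 0.000812), and overlapped. DUSP4, a nuclear phosphatase that turns off MAP kinases and is itself induced by them, had the lowest FDR of all genes together with CCBE1. Its values were 0.482 to 3.93 GeTMM in SF (median 2.61) and 8.18 to 19.1 in ISF (median 13.7), so that every ISF library was above every SF library (log2 fold change 2.21 ± 0.16 SE, FDR = 0.000318). In a fit that ignored the pairing by horse, VCAM1 lost the call (FDR = 0.0711), and PLPP3 and DUSP4 were called either way.

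**Figure D2:**
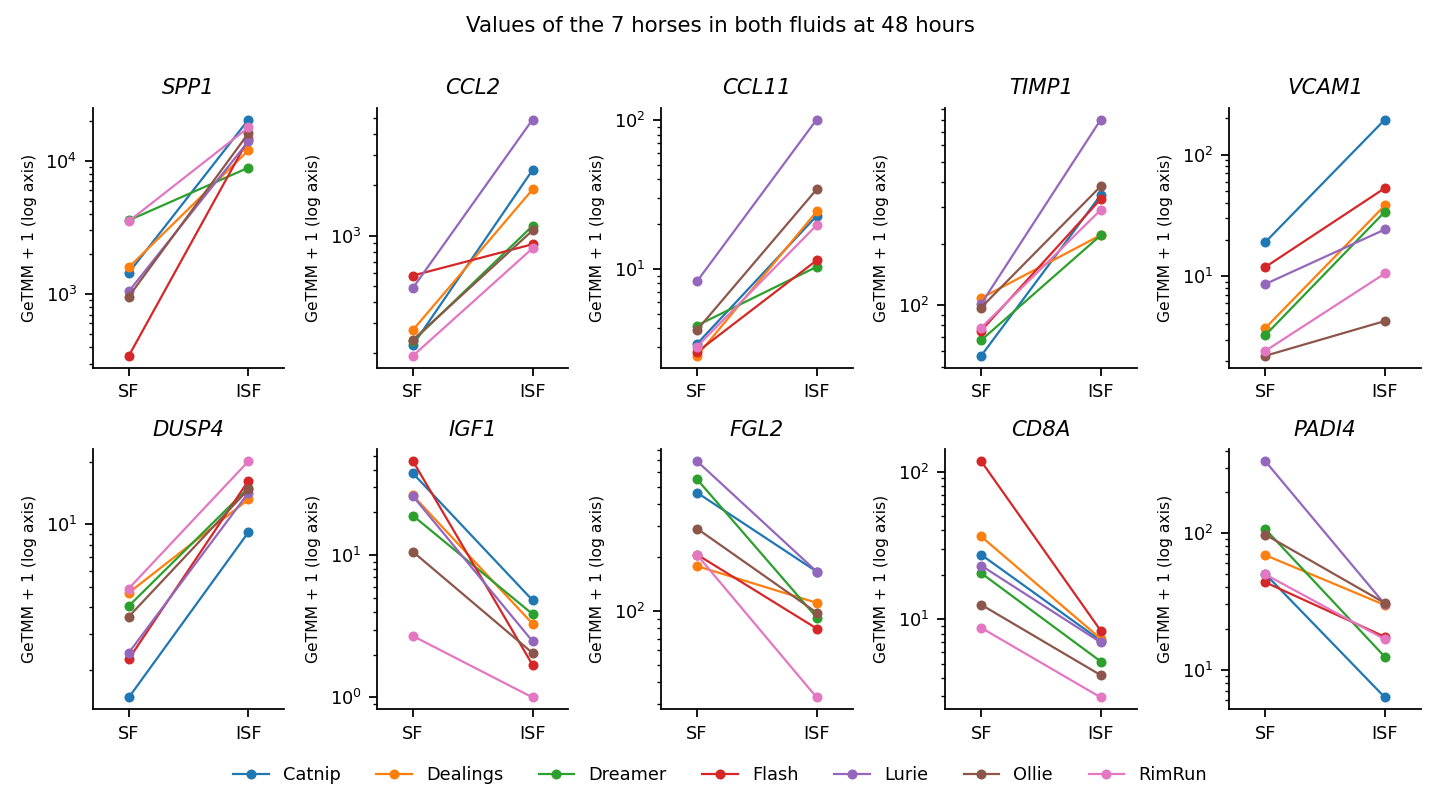
GeTMM + 1 on a log axis in the SF and ISF culture of each of the 7 horses (1 line and colour per horse) at 48 hours for 10 of the genes with the highest or lowest fold change. SPP1, CCL2, CCL11, TIMP1, VCAM1 and DUSP4 rise in every horse and IGF1, FGL2, CD8A and PADI4 fall in every horse, and RimRun starts lowest in SF for IGF1.

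Among the genes that were lowest in ISF, IGF1 changed most. It encodes insulin-like growth factor 1, which macrophages make during repair. In SF it stood between 1.7 and 44.9 GeTMM (median 25), and in ISF between 0 and 3.82 (median 1.48), where 1 library held no read of it (log2 fold change -2.89 ± 0.31 SE, FDR = 0.00103). Only the SF culture of RimRun reached down into the range of ISF. The cells before culture had 0.51 GeTMM on average, so that the transcript was nearly absent at the start. THBS1 encodes thrombospondin 1, a matrix protein that bridges phagocytes to dying cells. It stood at 20.2 to 99.4 GeTMM in SF (median 73) and 2.17 to 64.8 in ISF (median 13.4), lower in 7 of 7 horses with overlap (log2 fold change -1.98 ± 0.24 SE, FDR = 0.00144). FGL2, a secreted fibrinogen-like protein of macrophages and regulatory T cells that restrains immune responses, stood at 178 to 693 GeTMM in SF (median 289) and 31.7 to 165 in ISF (median 96.8), and the fluids did not overlap (log2 fold change -1.77 ± 0.21 SE, FDR = 0.00124).

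Other genes among the lowest belong to granulocytes and lymphocytes. PADI4 encodes the enzyme that citrullinates histones in neutrophils. It averaged 509 GeTMM before culture and stood at 42.6 to 333 GeTMM in SF (median 67.8) and 5.27 to 29.7 in ISF (median 16.4) after 48 hours, without overlap (log2 fold change -2.19 ± 0.28 SE, FDR = 0.00167). CRISP3, a protein of neutrophil granules and secretions, stood at 2.36 to 30.6 GeTMM in SF (median 11.7) and 1.06 to 8.79 in ISF (median 1.93), with overlap (log2 fold change -1.79 ± 0.25 SE, FDR = 0.00243), after 147 on average before culture. BMX is a kinase of myeloid and endothelial cells. It stood at 6.96 to 52.7 GeTMM in SF (median 12.6) and 2.54 to 13 in ISF (median 3.43), and among the ISF libraries that of Lurie alone, at 13 GeTMM, reached into the SF range (log2 fold change -1.48 ± 0.12 SE, FDR = 0.000382). CD8A, the co-receptor of cytotoxic T cells, was lower without overlap, at 7.76 to 117 GeTMM in SF (median 22.1) and 1.96 to 7.36 in ISF (median 5.97) (log2 fold change -2.13 ± 0.24 SE, FDR = 0.00104). OXER1 encodes a receptor for oxidised arachidonic acid products on granulocytes and did not overlap, at 3.28 to 27.3 GeTMM in SF (median 10.9) and 0.625 to 3.06 in ISF (median 1.36) (log2 fold change -2.22 ± 0.21 SE, FDR = 0.000601). Of 9 mature neutrophil markers 3 were tested, CSF3R, CXCL8 and MMP9. CXCL8 is also on the CXC chemokine list and MMP9 on the metalloproteinase list, so their mean is not a measure of neutrophils alone. That mean was 7.66 to 8.42 on the log2 scale in SF and 7.23 to 8.37 in ISF, lower in ISF in 4 of 7 horses, and its part in these differences was not tested. THBS1 and BMX did not pass when horse was left out of the model (FDR = 0.0518 to 0.0579), and PADI4, CRISP3, CD8A and OXER1 were called either way.

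The remaining genes of this group were of several kinds. S100A1, a calcium-binding protein best known from muscle, stood at 2.35 to 34.6 GeTMM in SF (median 10.7) and 0.69 to 3.11 in ISF (median 1.4) (log2 fold change -2.22 ± 0.38 SE, FDR = 0.00583), with overlap. TBXAS1, thromboxane synthase, stood at 13.8 to 45.9 GeTMM in SF (median 28.9) and 3.41 to 14.3 in ISF (median 7.51) (log2 fold change -1.49 ± 0.16 SE, FDR = 0.00103), where the highest ISF library just passed the lowest SF library. CCDC152 lies within the gene of a selenoprotein on the other strand in mammals, and reads of the pair may not be separable in these counts. Its values were 9.21 to 34.1 GeTMM in SF (median 15.5) and 0.326 to 9.14 in ISF (median 5.97), without overlap (log2 fold change -1.81 ± 0.29 SE, FDR = 0.00468). SLC27A6, a fatty acid transporter, stood at 1.47 to 54.7 GeTMM in SF (median 18) and 0.602 to 22.9 in ISF (median 7.27) (log2 fold change -1.58 ± 0.28 SE, FDR = 0.00694), and overlapped. An entry named U6, a spliceosomal RNA present in many copies whose reads cannot be assigned to 1 copy with certainty, was listed at 2.92 to 10.9 GeTMM in SF (median 7.83) and 0.44 to 5.31 in ISF (median 1.39) (log2 fold change -1.62 ± 0.27 SE, FDR = 0.00566). The pairing by horse was needed for the call of SLC27A6 (FDR = 0.221 without it), and S100A1, TBXAS1, CCDC152 and U6 were called either way.

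The function list with the highest median was that of the CC chemokines. Of 16 CC chemokines and receptors tested, 6 were called higher (3 with no term for horse) and none lower (2 without Dealings), which is 37.5% of the list against 14.5% of all genes tested. The median log2 fold change of the 16 was 0.41, against -0.01 over all genes. Besides the 3 attractants above these were CCL3, with a median of 83.6 GeTMM in SF and 153 in ISF (log2 fold change 1.10 ± 0.32 SE, FDR = 0.0446), and the receptors CCR6 (0.96) and CCR1 (0.49), of which CCR1 binds CCL3. CCRL2, a receptor that holds chemerin without signalling, was at -0.54 (FDR = 0.0615) and not called. Of 13 CXC and CX3C genes tested 23.1% were called. CXCL13, the B cell attractant, was higher (log2 fold change 1.15 ± 0.21 SE, FDR = 0.00848), and the receptors CXCR4 (-0.50) and CXCR3 (-0.49) were lower. CXCL16 was not called (0.25, FDR = 0.114). Without the term for horse, CCL3, CCR6, CCR1, CXCL13, CXCR4 and CXCR3 were not called (FDR = 0.0508 to 0.215). CCL3 and CCR1 each lost the call when a single horse was left out, depending on the gene Dreamer, Lurie, Ollie or RimRun (FDR up to 0.107, for CCL3 without Ollie).

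Among 17 inflammatory and regulatory cytokines tested, 2 were called higher and 1 lower (17.6%, against 14.5% of all genes). CSF1, the growth factor of macrophages, stood at 7.09 to 29.6 GeTMM in SF (median 12.6) and 12.1 to 89.2 in ISF (median 34.1) and was higher in 7 of 7 horses, with overlap (log2 fold change 1.45 ± 0.28 SE, FDR = 0.00992). IL1RN, the natural antagonist of interleukin 1, was higher in 6 of 7 horses, with a median of 107 GeTMM in SF and 152 in ISF (log2 fold change 0.80 ± 0.22 SE, FDR = 0.0386). IL16, a lymphocyte attractant, was lower (log2 fold change -0.52 ± 0.10 SE, FDR = 0.00919). IL18 and TGFB1, the members at the highest level that were not called, were at 0.55 (FDR = 0.149) and -0.26 (FDR = 0.137). Of the 22 subunits and regulators of NF-kB, 1 (4.55%) was called, the kinase IKBKB, and it was lower (log2 fold change -0.38 ± 0.10 SE, FDR = 0.0323). The inhibitor NFKBIA (-0.15) and the subunit RELA (-0.23) were not called. Of the 32 interferon-stimulated genes tested 1 (3.12%) was called, the ubiquitin ligase HERC6 (log2 fold change -1.36 ± 0.38 SE, FDR = 0.0396), and it was lower in 5 of 7 horses, with values of 24.5 to 108 GeTMM in SF (median 51.3) and 10.1 to 155 in ISF (median 13.5). The list had a median of -0.20, and IFIT2 (-0.89, FDR = 0.134) and IFI6 (-0.50, FDR = 0.257) were not called. In a fit that ignored the pairing by horse, CSF1, IL1RN, IL16, IKBKB and HERC6 lost the call (FDR = 0.0545 to 0.211). IL1RN, IKBKB and HERC6 each lost the call when a single horse was left out, depending on the gene Catnip, Dealings, Dreamer, Flash, Lurie, Ollie or RimRun (FDR up to 0.0995, for HERC6 without Dreamer).

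Receptors that receive cytokines changed in both directions, 7 higher (3 without Dreamer or Ollie, 3 with no term for horse) and 5 lower (0 with no term for horse) of 26 tested interleukin receptors and signal regulators, or 46.2% of the list against 14.5% of all genes tested. The higher ones include the interleukin 1 receptor chains IL1R1 and IL1RAP and the interleukin 15 receptor chain IL15RA. They also include molecules that block their ligand. IL18BP, the soluble trap for interleukin 18, stood at 16.8 to 47.9 GeTMM in SF (median 28.9) and 53.7 to 222 in ISF (median 62.8), without overlap (log2 fold change 1.53 ± 0.29 SE, FDR = 0.00915). IL1R2, the decoy receptor for interleukin 1, was higher in 7 of 7 horses at 20.8 to 68.7 GeTMM in SF (median 42.1) and 56.6 to 246 in ISF (median 108) (log2 fold change 1.45 ± 0.17 SE, FDR = 0.00124). SOCS3, the inhibitor of cytokine signalling that STAT3 induces, was at 1.01 ± 0.26 and higher in 6 of 7 horses (FDR = 0.029). IL4R, the receptor chain for interleukins 4 and 13, was at 0.67 ± 0.11 (FDR = 0.00588). Lower members were IL18R1, the receptor for interleukin 18, at -0.99 ± 0.18 (FDR = 0.0068), and both chains of the interleukin 6 receptor, IL6R (-0.68) and IL6ST (-0.55). The receptor chains IL13RA1 and IL17RA were called lower as well. Of 32 members of the TNF superfamily and its receptors 9.38% were called. TNFAIP6, which is induced by TNF and binds hyaluronan, was higher (log2 fold change 1.49 ± 0.32 SE, FDR = 0.0148), and LTB, a lymphocyte cytokine, and the receptor TNFRSF14 were lower (-0.88 and -0.65). SOCS3, IL18R1, IL6R, IL6ST and LTB did not pass when horse was left out of the model (FDR = 0.0584 to 0.13), and IL18BP, IL1R2, IL4R, TNFAIP6 and TNFRSF14 were called either way. SOCS3 lost its call without Catnip, Dreamer or Ollie (FDR up to 0.0802, without Dreamer).

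**Figure D3:**
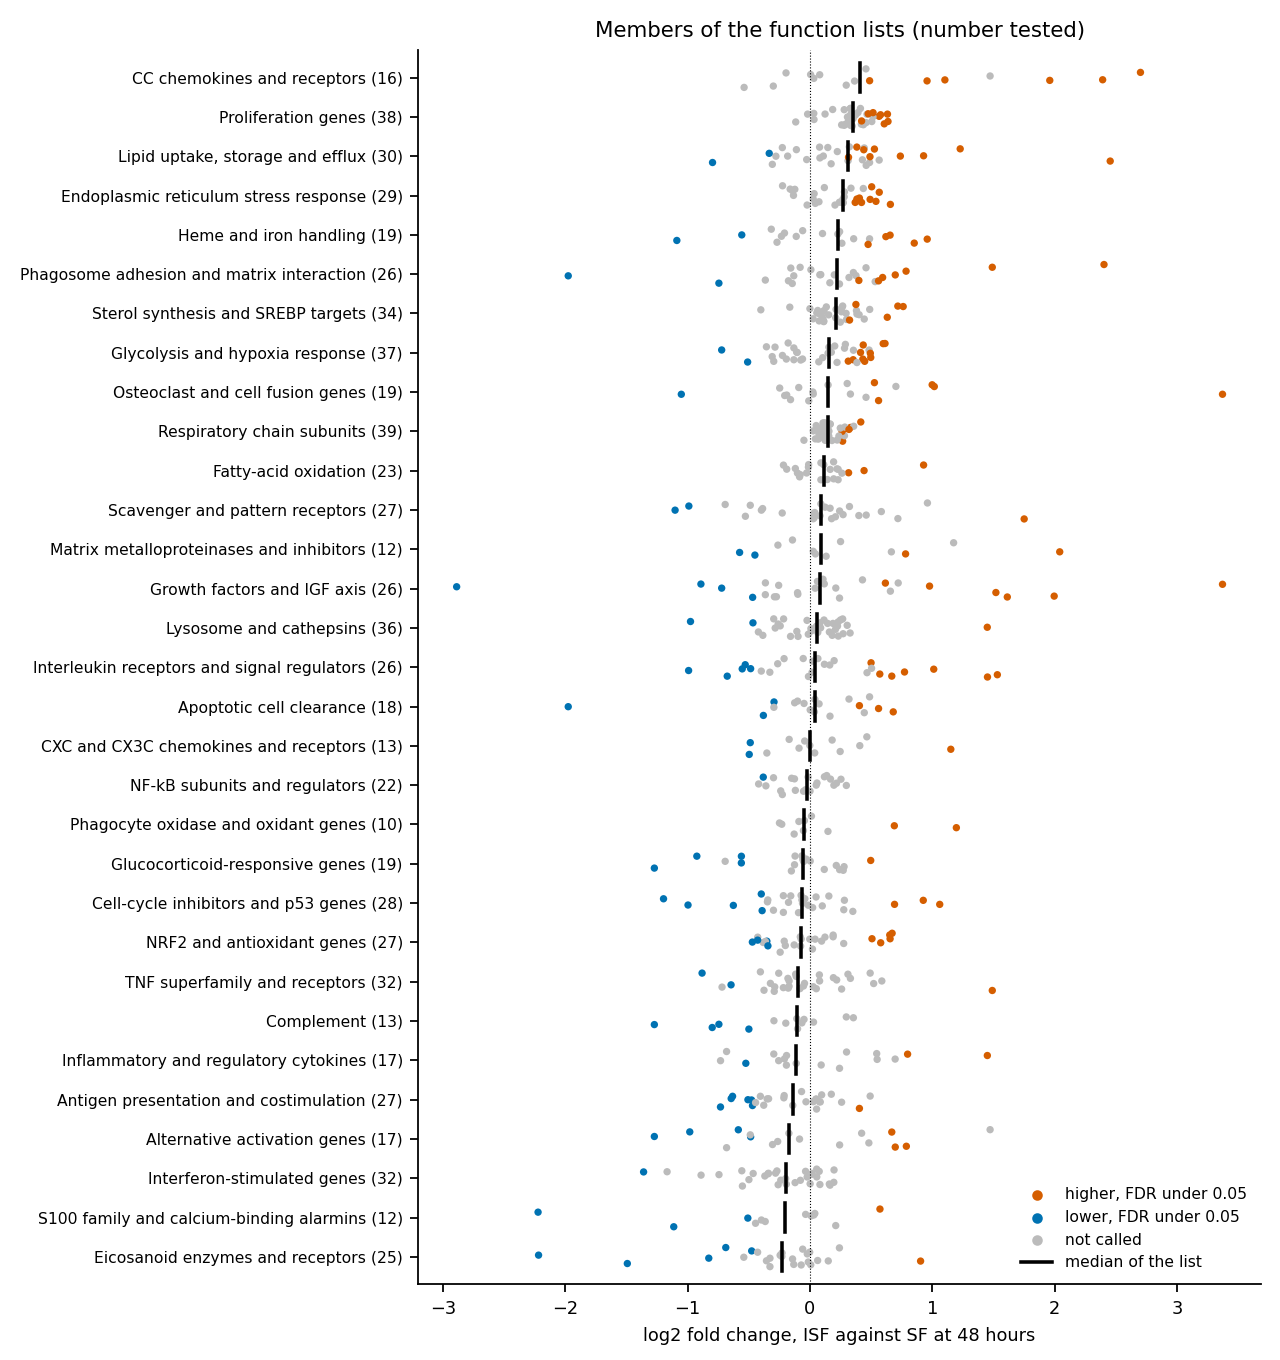
Log2 fold change of ISF against SF at 48 hours (horizontal axis) for each tested member of the 31 function lists, ordered by the median of the list (black bars), with the number tested in brackets; orange members are called higher, blue lower, and grey ones are not called. The CC chemokines have the highest median (0.41) and the eicosanoid genes the lowest (-0.23).

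Genes for taking up and handling lipid were called higher in ISF more often than lower. Of 30 tested, 9 were higher (5 without Dreamer, 3 with no term for horse) and 2 lower, 36.7% of the list against 14.5% of all genes, with a list median of 0.31. FABP4, a carrier of fatty acids in macrophages and fat cells, stood at 6.51 to 91.6 GeTMM in SF (median 26.6) and 42.9 to 567 in ISF (median 142), higher in 6 of 7 horses (log2 fold change 2.45 ± 0.36 SE, FDR = 0.00324). LPL, the enzyme that frees fatty acids from lipoproteins, stood at 8.82 to 103 GeTMM in SF (median 24) and 28.7 to 251 in ISF (median 42.2) (log2 fold change 1.23 ± 0.25 SE, FDR = 0.0121). CPT1A carries fatty acids to the mitochondria and was higher in 7 of 7 horses, at 33.3 to 68.7 GeTMM in SF (median 43.8) and 65 to 136 in ISF (median 93) (log2 fold change 0.93 ± 0.12 SE, FDR = 0.0017). FABP5 (0.74 ± 0.08), the lipid receptor TREM2 (0.53 ± 0.14), the oxysterol receptor NR1H3 (0.49 ± 0.11) and the lipid droplet coat protein PLIN2 (0.38 ± 0.08) were also called. LIPA, the acid lipase of lysosomes, was lower, with a median of 398 GeTMM in SF and 238 in ISF (log2 fold change -0.80 ± 0.19 SE, FDR = 0.0241). APOE, at 0.57, was not called (FDR = 0.0638). Enzymes that burn fatty acids included 3 called higher of 23 tested, CPT1A, ACSL5 (0.44) and ETFA (0.32), and none lower. This share, 13%, is near the 14.5% called of all genes tested. The pairing by horse was needed for the call of LPL, TREM2, NR1H3, PLIN2, LIPA, ACSL5 and ETFA (FDR = 0.0615 to 0.194 without it), and FABP4, CPT1A and FABP5 were called either way. TREM2, NR1H3, LIPA and ETFA each lost the call when a single horse was left out, depending on the gene Catnip, Dreamer, Flash, Lurie, Ollie or RimRun (FDR up to 0.106, for ETFA without Dreamer).

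Sterol synthesis genes were called about as often as any gene tested, 14.7% against 14.5%. Genes of a list may move together, so counts of signs over a list are no test. Of 34 sterol genes tested, 5 were called higher (0 without Catnip or Ollie, 0 with no term for horse) and none lower (2 without Dealings). A positive log2 fold change was found in 31 of the 34 (list median 0.21), beside 47.7% of all genes tested. The called members were the desaturase SCD (0.76 ± 0.21), FDPS (0.72 ± 0.18), the sterol sensor INSIG1 (0.63 ± 0.14), ACLY (0.38 ± 0.09) and ACAT2 (0.32 ± 0.09). Of 39 respiratory chain subunits 15.4% were called, again near the share of all genes, 6 higher (0 without Catnip, Dreamer or Ollie, 2 with no term for horse) and none lower, with 38 of 39 positive at a median of 0.15. The largest was ATP5MC1, a subunit of ATP synthase, with a median of 112 GeTMM in SF and 151 in ISF (log2 fold change 0.42 ± 0.10 SE, FDR = 0.0226), and ATP5F1B separated the fluids completely, at 251 to 301 GeTMM in SF (median 277) and 325 to 399.9 in ISF (median 344) (log2 fold change 0.33 ± 0.07 SE, FDR = 0.0174). COX6B1 was not called (0.17, FDR = 0.256). Without the term for horse, SCD, FDPS, INSIG1, ACLY and ACAT2 were not called (FDR = 0.0631 to 0.118), and ATP5MC1 and ATP5F1B were called either way. SCD, FDPS, INSIG1, ACLY, ACAT2, ATP5MC1 and ATP5F1B each lost the call when a single horse was left out, depending on the gene Catnip, Dealings, Dreamer, Flash, Lurie, Ollie or RimRun (FDR up to 0.113, for ACAT2 without Ollie).

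Of 37 genes of glycolysis and the hypoxia response, 10 were called higher (4 without Catnip, Dreamer or Ollie, 6 with no term for horse) and 2 lower, 32.4% of the list against 14.5% of all genes tested (list median 0.15). GAPDH stood at 1131 to 1540.0 GeTMM in SF (median 1364) and 1616 to 2294 in ISF (median 2139.6), without overlap (log2 fold change 0.60 ± 0.10 SE, FDR = 0.00649), and PFKP, the platelet form of phosphofructokinase, at 31.9 to 48.7 GeTMM in SF (median 34.1) and 45.3 to 73.4 in ISF (median 55) (log2 fold change 0.61 ± 0.10 SE, FDR = 0.00573). The enzymes ENO1 (0.50), PKM (0.43), TPI1 (0.41) and LDHA (0.45) were called as well. The other members called higher were PGAM1, LDHB and the hypoxia genes PFKFB3 and NDRG1, so hypoxia genes were called in both directions. VEGFA, the vascular growth factor that hypoxia induces, was lower in 7 of 7 horses, at 17.6 to 28.5 GeTMM in SF (median 20.9) and 8.48 to 18.4 in ISF (median 12.4) (log2 fold change -0.72 ± 0.12 SE, FDR = 0.00562), and the kinase PDK1, another hypoxia gene, was lower too (log2 fold change -0.51 ± 0.15 SE, FDR = 0.0464). ALDOA was not called (-0.13, FDR = 0.394). In a fit that ignored the pairing by horse, PDK1 lost the call (FDR = 0.245), and GAPDH, PFKP, ENO1, PKM, TPI1, LDHA and VEGFA were called either way. PKM, TPI1, LDHA and PDK1 each lost the call when a single horse was left out, depending on the gene Catnip, Dreamer, Flash, Lurie, Ollie or RimRun (FDR up to 0.106, for PDK1 without Ollie).

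In the list of the endoplasmic reticulum stress response, whose chaperones fold secreted proteins, 9 of 29 genes were higher (5 without Catnip or Lurie, 1 with no term for horse) and none lower, 31% of the list against 14.5% of all genes tested (list median 0.27). HSPA5, the central chaperone BiP, stood at 339 to 593 GeTMM in SF (median 448) and 499.8 to 838 in ISF (median 646), higher in 7 of 7 horses with overlap (log2 fold change 0.54 ± 0.10 SE, FDR = 0.00826). CRELD2 (0.66 ± 0.10), HYOU1 (0.57 ± 0.11) and SDF2L1 (0.50 ± 0.10), other members that act on folding, were called at FDR values of 0.00369, 0.00951 and 0.012. Of the proliferation genes 8 of 38 were called higher (1 without Dreamer, 26 without RimRun, 0 with no term for horse), none lower, and 36 of 38 were positive (median 0.35), beside 47.7% of all genes tested. The share called was 21.1%, beside 14.5% of all genes. TK1, a thymidine kinase of dividing cells, stood at 62.8 to 90.8 GeTMM in SF (median 82.9) and 64.1 to 171 in ISF (median 127), higher in 6 of 7 horses (log2 fold change 0.64 ± 0.16 SE, FDR = 0.0264). CCND2 (0.63 ± 0.15), CCNB1 (0.61 ± 0.17) and UBE2C (0.58 ± 0.15) were each higher in 6 of 7 horses, and PCNA was not called (0.28, FDR = 0.203). Of 28 inhibitors of the cell cycle and p53 genes 3 were higher and 5 lower (3 without Catnip or Dreamer, 1 with no term for horse), or 28.6% of the list. GADD45G did not overlap, at 2.32 to 6.81 GeTMM in SF (median 4.35) and 7.43 to 14.2 in ISF (median 11) (log2 fold change 1.06 ± 0.12 SE, FDR = 0.00119), and BCL2L1, which protects from cell death, was higher (0.69 ± 0.10), while the death promoter PMAIP1 was lower at 23.1 to 72.7 GeTMM in SF (median 31.3) and 8.72 to 26.7 in ISF (median 15.1) (log2 fold change -1.20 ± 0.15 SE, FDR = 0.00146). HSPA5, HYOU1, SDF2L1, TK1, CCND2, CCNB1 and UBE2C did not pass when horse was left out of the model (FDR = 0.0515 to 0.123), and CRELD2, GADD45G, BCL2L1 and PMAIP1 were called either way. TK1, CCND2, CCNB1 and UBE2C each lost the call when a single horse was left out, depending on the gene Catnip, Dealings, Dreamer, Flash, Lurie or Ollie (FDR up to 0.113, for CCNB1 without Dreamer).

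The genes of antigen presentation that were lower in ISF belong to class II. Of 27 entries tested for antigen presentation and costimulation, 6 were lower (0 with no term for horse) and 1 higher, 25.9% of the list against 14.5% of all genes tested (list median -0.14). DRA stood at 1254 to 2671 GeTMM in SF (median 1721) and 628 to 1525 in ISF (median 1253) (log2 fold change -0.64 ± 0.10 SE, FDR = 0.00409), and CD74, the chaperone of class II molecules, at 1197 to 2503 GeTMM in SF (median 1745) and 672 to 1403 in ISF (median 1202) (log2 fold change -0.63 ± 0.11 SE, FDR = 0.00744). DQA (-0.73 ± 0.09), DQB (-0.51 ± 0.08) and 2 entries that share the symbol DRB were lower in 7 of 7 horses as well. These genes are close relatives that differ between animals, so that reads may be shared among them. B2M, the light chain of class I, was at -0.38 (FDR = 0.161) and not called, and the higher member was the chaperone CALR (0.40 ± 0.11). The mean of the dendritic cell markers described below was higher in ISF in 6 of 7 horses. Of the 8 tested, 5 had a positive and 3 a negative log2 fold change (median 0.04), and BATF3 alone was called. The mean of the B cell markers was lower in ISF in 6 of 7 horses. The part of both lists in the class II differences was not tested. Of 13 complement genes 4 were lower (1 with no term for horse) and none higher (30.8%), and these encode receptors: VSIG4 at -1.27 ± 0.20, C5AR2 at -0.80 ± 0.13, C5AR1 at -0.50 ± 0.09 and the integrin chain ITGAM, which stood at 262 to 593 GeTMM in SF (median 494) and 169 to 313 in ISF (median 246) (log2 fold change -0.74 ± 0.10 SE, FDR = 0.00209). The pairing by horse was needed for the call of DRA, CD74, DQA, DQB, CALR, VSIG4, C5AR2 and C5AR1 (FDR = 0.0799 to 0.267 without it), and ITGAM was called either way. CALR lost its call without Catnip, Dreamer, Lurie, Ollie or RimRun (FDR up to 0.12, without Dreamer).

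Eicosanoid genes had the lowest median of the function lists. Of 25 tested, 5 were lower (3 with no term for horse) and 1 was higher, 24% of the list against 14.5% of all genes tested. A negative log2 fold change was found in 20 of 25 (median -0.23), while 47.7% of all genes tested had a positive one. Besides OXER1 and TBXAS1 above, the lower ones were the receptors CYSLTR1 (-0.83 ± 0.14), for cysteinyl leukotrienes, PTGER4 (-0.69 ± 0.11), for prostaglandin E2, and PTGDR (-0.48 ± 0.12). The higher one was ALOX5AP, which presents arachidonic acid to 5-lipoxygenase, at 160.3 to 467 GeTMM in SF (median 326) and 303 to 839 in ISF (median 612) (log2 fold change 0.90 ± 0.12 SE, FDR = 0.00209). Of 12 S100 and other alarmin genes 33.3% were called, beside 14.5% of all genes tested. S100A11 was higher without overlap, at 1429.9 to 2135 GeTMM in SF (median 1845) and 2436 to 3179 in ISF (median 2622) (log2 fold change 0.57 ± 0.09 SE, FDR = 0.00447), and S100A13 (-1.11 ± 0.19) and HMGB2 (-0.51 ± 0.12) were lower beside S100A1. Without the term for horse, CYSLTR1, PTGDR, ALOX5AP, S100A13 and HMGB2 were not called (FDR = 0.0545 to 0.381), and PTGER4 and S100A11 were called either way. PTGDR and HMGB2 each lost the call when a single horse was left out, depending on the gene Catnip, Dreamer or Ollie (FDR up to 0.0797, for PTGDR without Dreamer).

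Scavenging and clearance genes were called singly. Of 27 scavenger and pattern receptors 11.1% were called, beside 14.5% of all genes. OLR1, a receptor for oxidised lipoprotein, was higher at 10.6 to 54.1 GeTMM in SF (median 36.7) and 47.6 to 253 in ISF (median 95.6) (log2 fold change 1.75 ± 0.23 SE, FDR = 0.0017), and the scavenger CD163L1 (-1.10 ± 0.26) and the flagellin receptor TLR5 (-0.99 ± 0.15) were lower. The relative CD163 was not called (0.24, FDR = 0.499). Of 18 genes for clearance of apoptotic cells 3 were higher (0 without Catnip, Lurie or Ollie, 0 with no term for horse) and 3 lower (33.3%). The largest difference was that of THBS1, described above, and the largest among the higher ones that of HAVCR2, a receptor for phosphatidylserine on dying cells (log2 fold change 0.68 ± 0.21 SE, FDR = 0.04999). Of 36 lysosomal genes 1 was called higher and 2 lower (8.33%). The higher one was cathepsin L, CTSL, at 36.2 to 129 GeTMM in SF (median 64.4) and 124 to 225 in ISF (median 177) (log2 fold change 1.45 ± 0.15 SE, FDR = 0.000812), and the lower ones were its inhibitor cystatin C, CST3, at 397 to 1049.8 GeTMM in SF (median 600.1) and 223 to 430.1 in ISF (median 306) (log2 fold change -0.98 ± 0.14 SE, FDR = 0.0031), and cathepsin S, CTSS (log2 fold change -0.47 ± 0.13 SE, FDR = 0.0395). CTSB was not called (0.33, FDR = 0.116). In a fit that ignored the pairing by horse, CD163L1, TLR5, HAVCR2 and CTSS lost the call (FDR = 0.0936 to 0.173), and OLR1, CTSL and CST3 were called either way. CD163L1, HAVCR2 and CTSS each lost the call when a single horse was left out, depending on the gene Catnip, Dealings, Dreamer, Flash, Lurie or Ollie (FDR up to 0.119, for HAVCR2 without Catnip).

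Of 19 heme and iron genes 5 were higher (2 without Catnip, Dreamer or Lurie, 2 with no term for horse) and 2 lower, 36.8% of the list against 14.5% of all genes tested (list median 0.23). TFRC, the transferrin receptor that brings iron in, stood at 66.9 to 139.8 GeTMM in SF (median 99.3) and 137 to 235 in ISF (median 177), higher in 7 of 7 horses (log2 fold change 0.96 ± 0.10 SE, FDR = 0.000756), and the exporter SLC40A1, ferroportin, was lower in 7 of 7 horses, at 42.7 to 131 GeTMM in SF (median 58.2) and 18.3 to 67.3 in ISF (median 36.8) (log2 fold change -1.09 ± 0.15 SE, FDR = 0.00268). The iron importer SLC11A2 (0.62), the heme transporter SLC48A1 (0.85 ± 0.13) and heme oxygenase HMOX1 (0.66 ± 0.16) were higher, the heme exporter FLVCR1 was lower (-0.56), and the ferritin chain FTH1 was not called (0.26, FDR = 0.307). Of 27 antioxidant genes 5 were higher (1 without Dreamer, 1 with no term for horse) and 4 lower (2 without Catnip, Dreamer, Flash, Lurie or Ollie, 0 with no term for horse), or 33.3%. PRDX6 did not overlap, at 65.9 to 97.4 GeTMM in SF (median 82.6) and 102 to 171 in ISF (median 124) (log2 fold change 0.67 ± 0.07 SE, FDR = 0.00103), and SRXN1 (0.65 ± 0.16) and SOD2 (0.58 ± 0.16) were higher, whereas NFE2L2, the transcription factor that drives many of them, was lower (-0.35 ± 0.10). Of 10 oxidase and oxidant genes 20% were called. LPO (1.20 ± 0.20) and MPO (0.69 ± 0.18), related peroxidases, were higher, and CYBA, a subunit of the phagocyte oxidase, was not called (-0.25, FDR = 0.0974). The mean of the neutrophil precursor markers, MPO among them, was higher in ISF in 5 of 7 horses. SLC40A1, SLC11A2, FLVCR1, HMOX1, SRXN1, SOD2, NFE2L2, LPO and MPO did not pass when horse was left out of the model (FDR = 0.0579 to 0.25), and TFRC, SLC48A1 and PRDX6 were called either way. SLC11A2, FLVCR1, HMOX1, SRXN1, SOD2, NFE2L2 and MPO each lost the call when a single horse was left out, depending on the gene Catnip, Dealings, Dreamer, Flash, Lurie, Ollie or RimRun (FDR up to 0.127, for FLVCR1 without Dreamer).

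Of 26 growth factors and members of the IGF axis 6 were higher, SPP1, EREG and AREG above among them, and 4 lower (38.5%, against 14.5% of all genes tested). TGFB3 stood at 0.698 to 8.2 GeTMM in SF (median 2.38) and 2.31 to 29.6 in ISF (median 9.11) (log2 fold change 1.61 ± 0.27 SE, FDR = 0.00566), and the receptor TGFBR1, which the TGF-beta ligands share, did not overlap at 18.9 to 30.1 GeTMM in SF (median 25.9) and 37.8 to 82.8 in ISF (median 48.1) (log2 fold change 0.98 ± 0.12 SE, FDR = 0.00124). The inhibitor SMAD7, a target of that pathway, was higher too (0.62 ± 0.13). PDGFB (-0.89 ± 0.18) and HGF (-0.47 ± 0.12) were lower beside IGF1 and VEGFA. Of 26 adhesion and matrix genes 7 were higher (3 without Lurie or Ollie, 2 with no term for horse) and 2 lower, 34.6% of the list (median 0.22), among them ITGA5, the fibronectin receptor chain, without overlap at 30.2 to 41.9 GeTMM in SF (median 35.3) and 42.9 to 88.1 in ISF (median 64.6) (log2 fold change 0.79 ± 0.09 SE, FDR = 0.00104), and fibronectin itself, FN1 (log2 fold change 0.70 ± 0.19 SE, FDR = 0.0378). Of 12 metalloproteinases and inhibitors, 2 were higher and 2 lower (33.3%). MMP1, the interstitial collagenase, was higher beside TIMP1, at 715 to 1741 GeTMM in SF (median 1459.9) and 1413 to 3576 in ISF (median 2292) (log2 fold change 0.78 ± 0.20 SE, FDR = 0.0279), and MMP25 (-0.58 ± 0.12) and MMP19 (-0.45 ± 0.13) were lower. The pairing by horse was needed for the call of TGFB3, PDGFB, HGF, FN1, MMP1, MMP25 and MMP19 (FDR = 0.06 to 0.339 without it), and TGFBR1, SMAD7 and ITGA5 were called either way. HGF, FN1, MMP1 and MMP19 each lost the call when a single horse was left out, depending on the gene Catnip, Dealings, Dreamer, Flash, Lurie, Ollie or RimRun (FDR up to 0.102, for MMP19 without Ollie).

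Of 19 osteoclast and fusion genes 5 were higher (3 without Flash, Ollie or RimRun, 2 with no term for horse), SPP1 and TREM2 among them, and 1 was lower (31.6%, against 14.5% of all genes tested). OCSTAMP, which cells need to fuse, was a low-level transcript with a median of 0.816 GeTMM in SF and 2.44 in ISF (log2 fold change 1.00 ± 0.20 SE, FDR = 0.0103), and creatine kinase CKB was higher (log2 fold change 1.02 ± 0.18 SE, FDR = 0.00672), whereas ACP5, the tartrate-resistant acid phosphatase that marks osteoclasts, was lower at 184 to 718 GeTMM in SF (median 297) and 59.4 to 319.9 in ISF (median 167) (log2 fold change -1.05 ± 0.13 SE, FDR = 0.00124). CTSK was not called (-0.16, FDR = 0.451). Of 17 genes of alternative activation, the state of macrophages that interleukin 4 induces, 3 were higher (1 without Catnip, Lurie or Ollie, 1 with no term for horse) and 4 lower (0 with no term for horse), or 41.2%. F13A1, coagulation factor XIII of macrophages, was lower in 7 of 7 horses at 7.97 to 31.3 GeTMM in SF (median 22.8) and 3.41 to 14.1 in ISF (median 11.6) (log2 fold change -0.98 ± 0.09 SE, FDR = 0.000601), and transglutaminase TGM2 was higher (log2 fold change 0.79 ± 0.23 SE, FDR = 0.0433). Of 19 glucocorticoid-responsive genes 1 was higher, KLF9 (0 without Catnip, Dreamer, Flash, Ollie or RimRun, 0 with no term for horse), and 4 were lower (1 with no term for horse). This was 26.3% of the list, with a list median of -0.06. The lower ones included TSC22D3, the leucine zipper protein GILZ (log2 fold change -0.92 ± 0.18 SE, FDR = 0.0103), CRISPLD2 (-0.56 ± 0.12) and the receptor NR3C1 itself (-0.56 ± 0.11). FKBP5, PER1, DUSP1 and ZBTB16 were not called. Without the term for horse, OCSTAMP, ACP5, F13A1, TGM2, TSC22D3 and NR3C1 were not called (FDR = 0.0683 to 0.303), and CKB and CRISPLD2 were called either way. TGM2 and CRISPLD2 each lost the call when a single horse was left out, depending on the gene Catnip, Dreamer, Flash, Lurie, Ollie or RimRun (FDR up to 0.103, for TGM2 without Ollie).

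Beside the stromal list, of which THY1 alone was tested, the macrophage, monocyte, neutrophil precursor and mature neutrophil lists were the highest marker lists in the 14 libraries. For the 11 macrophage markers tested, the mean log2(GeTMM + 1) was 6.75 to 8.32 in SF and 7.17 to 8.30 in ISF, higher in ISF in 4 of 7 horses, against 3.94 before culture. Of these 11, LPL and TREM2 were called, both higher. Monocyte markers (7 tested) were at 7.46 to 8.41 in SF and 7.06 to 8.27 in ISF, and LYZ, lysozyme, was lower (log2 fold change -0.71 ± 0.19 SE, FDR = 0.0323). CD14, a defining monocyte marker, is listed as 2 entries that reached at most 2.72 and 0.746 GeTMM in any of these libraries. Reads of the 2 entries may not be separable in these counts. The study measured CD14 in these cultures by flow cytometry and reported the findings elsewhere. The low RNA values alone do not show that the cells lack it. Stromal markers did not pass the filter in 9 of 10 cases, with COL1A1 at most 0.354, COL1A2 at most 0.203 and DCN at most 0.435 GeTMM. The one that did was THY1, which blood cells can also carry. It stood at 143 to 2142 GeTMM in SF (median 878) and 221 to 1102 in ISF (median 552) and was not called (-0.57, FDR = 0.0501). The neutrophil precursor list (6 tested) had a median library value of 8.45 in SF and 8.39 in ISF, with MPO higher and lactoferrin, LTF, lower (log2 fold change -0.90 ± 0.21 SE, FDR = 0.0213). Of 3 mature neutrophil markers tested (CSF3R, CXCL8 and MMP9), CSF3R was lower (log2 fold change -0.56 ± 0.13 SE, FDR = 0.0207).

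The lymphocyte marker lists were lower in ISF in most horses. The mean of 10 T cell markers was 2.95 to 4.83 in SF (median 4.02) and 2.42 to 4.07 in ISF (median 3.47), lower in ISF in 6 of 7 horses with a mean difference of -0.55 ± 0.32 (SD, n = 7). Of the 10, 4 were called lower (40%, against 14.5% of all genes tested), CD8A, TRAT1 (-0.68 ± 0.18) and CD2 (-0.50 ± 0.13) among them, and none higher. CD3E was at -0.51 (FDR = 0.0771). A negative log2 fold change was found in 9 of the 10, while 47.7% of all genes tested had a positive one. The mean of CD4 went the other way, at 49.1 GeTMM in SF and 70.2 in ISF. The B cell list was lower in 6 of 7 horses, with 3 of 7 tested members (42.9%) called lower. Of 9 natural killer markers KLRD1 was lower (log2 fold change -0.75 ± 0.14 SE, FDR = 0.00793), and of 7 plasma cell markers JCHAIN was lower (log2 fold change -0.57 ± 0.14 SE, FDR = 0.0261). These shares, 11.1% and 14.3%, are not above the 14.5% called of all genes tested. The natural killer list had a median of -0.09, and NCR1, its highest member, averaged 195 GeTMM in SF and 218 in ISF. The means of the T cell, B cell, natural killer and plasma cell lists moved in the same direction as CXCR3, LTB and IL16 above. CD8A, also lower, is itself a member of the T cell list. The part of these lists in those differences was not tested. No member of the megakaryocyte (3 tested), the stem and progenitor (5) or the eosinophil, basophil and mast cell list (2) was called. Of 6 erythroid genes, whose mean was lower in ISF in 5 of 7 horses, TFRC alone was called, and of 8 dendritic cell genes BATF3, a transcription factor, was higher without overlap, at 1.32 to 3.27 GeTMM in SF (median 1.76) and 3.74 to 20.2 in ISF (median 6.73) (log2 fold change 1.46 ± 0.18 SE, FDR = 0.0015). In a fit that ignored the pairing by horse, LYZ, LTF, CSF3R, TRAT1, CD2, KLRD1 and JCHAIN lost the call (FDR = 0.118 to 0.65), and BATF3 was called either way. LYZ, LTF, CSF3R, TRAT1, CD2 and JCHAIN each lost the call when a single horse was left out, depending on the gene Catnip, Dreamer, Flash, Lurie, Ollie or RimRun (FDR up to 0.0943, for CD2 without Dreamer).

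**Figure D4:**
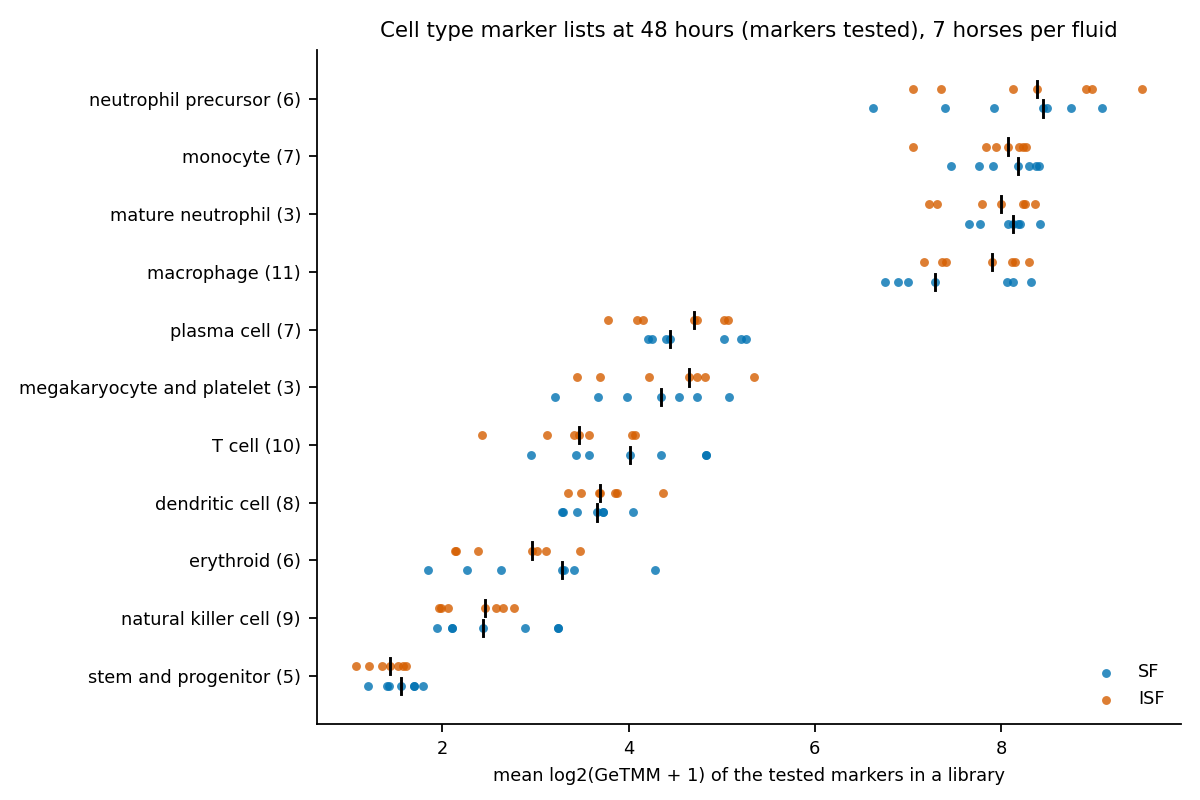
Mean log2(GeTMM + 1) over the tested markers of a cell type list (number in brackets) in each library at 48 hours, with 7 horses per fluid (blue SF, orange ISF; black bars are medians). Macrophage, monocyte and both neutrophil lists lie between 6.63 and 9.51 and the other lists drawn at 5.35 or less. The T cell median of ISF (3.47) lies to the left of that of SF (4.02). The stromal list (1 tested), the eosinophil, basophil and mast cell list (2 tested) and the B cell list are not drawn.

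The differences of 48 hours were followed at 96 hours and 6 days in the same horses, in libraries that the calls did not use. Of the genes called higher at 48 hours, 94.2% had a mean difference above 0 at 96 hours and 88.8% at 6 days, against 50.7% and 47.8% of all genes tested. Of those called lower, 89.3% and 83.0% had one below 0. Without Dealings and Dreamer the 96 hour shares were 94.8% and 90.5%. The median difference of the higher genes was 0.49 at 48 hours, 0.49 at 96 hours and 0.58 at 6 days, and that of the lower genes -0.53, -0.36 and -0.43. The times share the horses, and a difference chosen for its size at 48 hours tends to be smaller elsewhere by the choice alone. The tests of change that follow use the 48 hour libraries again.

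A change of the difference itself was tested within horses. From 48 to 96 hours it was called for 843 of the genes tested (6.67%), of which 228 were DEGs at 48 hours, and from 48 hours to 6 days for 2228 (17.6%), of which 550 were. Among these DEGs the difference grew in 101 by 96 hours and in 280 by 6 days, and turned sign in 87 and 209. Without Dealings and Dreamer the counts were 435 at 96 hours and 860 at 6 days, and without a term for horse 12 and 845. Here the counts at 96 hours also fell by more than 1.5 times without Catnip (451), Flash (388), Lurie (435) or Ollie (399), and that at 6 days without Dreamer (1427).

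The later course of the leading genes of 48 hours differed. The difference of CCL2 went from 2.39 to 4.15 at 96 hours and 4.34 at 6 days (change to 6 days FDR = 0.00087, and 0.0152 without Dealings and Dreamer), and that of CCL8 from 1.96 to 4.06 and 4.20. NPTX1 went from 2.47 to 4.47 and 4.44 (FDR = 0.000648 to 6 days). SPP1, the highest gene at 48 hours, narrowed instead: its difference was 1.82 at 96 hours and 0.48 at 6 days, where it was higher in ISF in 4 of 7 horses (change to 6 days -2.89 ± 0.65 SE, FDR = 0.0118). OXER1 narrowed from -2.22 to -0.68 and -0.37 (FDR = 0.00707 to 96 hours, and 0.0177 without both horses), while S100A1 widened from -2.22 to -4.16 and -5.51 (FDR = 0.000185 to 6 days). IGF1 stayed lower in 7 of 7 horses at both times, at -2.56 and -2.87, and the test of its change did not pass (FDR = 0.502 and 0.964). Without both horses IGF1 was at -2.74 at 96 hours, lower in 5 of 5 (FDR of the change 0.711).

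The DEGs with the lowest FDR in the test of change were of both kinds. To 96 hours, ACP5 widened from -1.05 to -2.50 (change -1.45 ± 0.12, FDR = 0.00366). AOX4, an aldehyde oxidase, turned from 0.76 at 48 hours, higher in 7 of 7 horses, to -1.21, lower in 7 of 7 and, without Dealings and Dreamer, in 5 of 5 (FDR = 0.00449). PYGO1, a cofactor of Wnt signalling, and PCMT1, which repairs damaged aspartate residues in proteins, were lower at 48 hours (-1.45 and -0.65) and near 0 at 96 hours (0.09 and 0.04). Without Dealings and Dreamer these changes were -1.47, -1.96, 1.45 and 0.70, with FDR values of 0.0103 to 0.0177. To 6 days, MPO, the peroxidase of neutrophil granules, had the lowest FDR. It was higher in ISF in 6 of 7 horses at 48 hours (log2 fold change 0.69 ± 0.18 SE, FDR = 0.0302) and lower in 7 of 7 horses at 96 hours (-1.79, and in 5 of 5 without both horses) and at 6 days (-3.27), with a change to 6 days of -3.96 ± 0.17 (FDR = 2.91e-06). The median of the 6 neutrophil precursor genes, MPO among them, went from 0.38 at 48 hours to -0.98 and -3.02. LTF of the same list was already lower in ISF at 48 hours. CST7, cystatin F, turned from 0.95 to -0.74, the heat shock factor HSF4 from 0.50 to -1.47, and CYTIP, a regulator of integrin adhesion, from -0.45 to 1.10, whereas POU2F3, a transcription factor, widened from 1.16 to 2.42. The calls of these genes at 48 hours, as distinct from their change, also depended on the fit. MPO, CST7, HSF4, CYTIP, AOX4 and PCMT1 did not pass when horse was left out of the model (FDR = 0.055 to 0.379), and POU2F3 and PYGO1 were called either way. MPO, HSF4, CYTIP and AOX4 each lost the call when a single horse was left out, depending on the gene Catnip, Dreamer, Flash, Lurie, Ollie or RimRun (FDR up to 0.117, for HSF4 without Catnip).

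**Figure D5:**
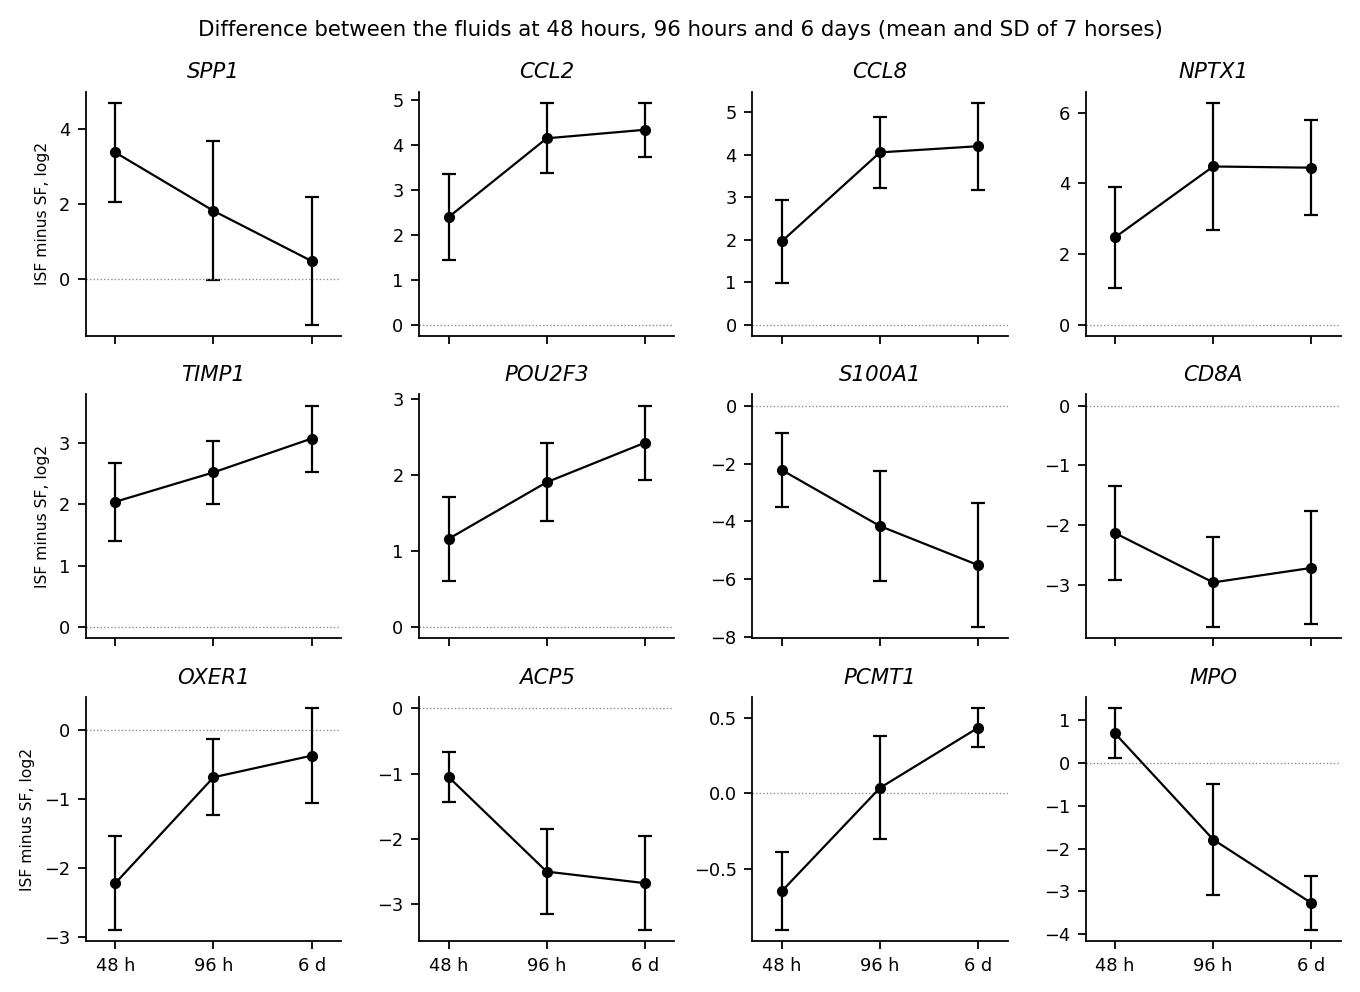
Difference between ISF and SF in log2(GeTMM + 1), mean and SD of the 7 horses, at 48 hours, 96 hours and 6 days for 12 genes, with 96 hour libraries paired as labelled; the dotted line marks no difference. CCL2, CCL8 and NPTX1 move away from 0 after 48 hours, SPP1 and OXER1 move toward it, and PCMT1 and MPO cross it.

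Medians of the lists also moved over time. The median difference of the CC chemokines went from 0.41 at 48 hours to 0.95 at 96 hours and 0.69 at 6 days, that of the proliferation genes from 0.35 to 0.88 and 0.83, and that of glycolysis and hypoxia genes from 0.15 to 0.29 and 1.05. Sterol synthesis, at 0.21 at 48 hours, was at 0.03 and 0.00 later, beside medians of all genes of 0.01 and -0.02. VEGFA, lower in ISF at 48 hours, stood at 0.22 at 96 hours and 1.29 at 6 days (change to 6 days FDR = 0.00771), and the T cell list went from a median of -0.47 to -1.05 and -1.74.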

How the data were processed

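Per the labels and the study's methods, the authors mapped reads to the horse genome EquCab3.0 with STAR 2.7.2a, counted reads per gene without stated use of strand, and deposited GeTMM values, an RPKM-like unit in which reads per gene length are divided by their sum in the library and by a TMM factor. The values are relative within a library, so they give shares of RNA and not amounts per cell.

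Values of the 14 libraries were taken as log2(GeTMM + 1). Genes that reached 0.5 GeTMM in 7 or more of them were fitted with limma 3.58.1 in R 4.3.3 (lmFit, eBayes with a trend) with terms for horse and fluid, and called at a Benjamini-Hochberg FDR under 0.05, two-sided. ISF and SF libraries share the horse by their labels, and libraries of the same horse deviated together from their group means, with a correlation of 0.424 to 0.590 in each of the 7 horses. Each group holds 1 library per horse. The change of the difference over time was tested on differences within horses. Whole reads were recovered from the steps of the values for 100.0% of the 24065 genes above 0, and limma voom on those reads was an alternative, as were other pseudocounts, filters, scalings, weights and fits. Scripts were tested on simulated data. Figures were drawn with matplotlib 3.10.9 under Python 3.11.15.

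Named are the 12 genes of highest and of lowest fold change among DEGs that averaged at least 5 GeTMM in a fluid and moved 1 way in 7 of 7 horses, the 5 of lowest FDR, up to 4 DEGs and 2 other members of each function list, markers, and the 5 DEGs of lowest FDR in each test of change. ENO1, PKM, TPI1, LDHA, AREG, SMAD7, SLC11A2, FLVCR1 and some other DEGs of the lists were added after their values were seen. Lists and genes were chosen with earlier results of these data known. Some items are not reported here. Gene symbols are those of the table. No sequences or coordinates were used.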

Additional observations from a re-analysis of the deposited data

Results flagged for a closer look

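In 5 of 74 groups of 7 libraries that were tested, 1 library lay apart from the others by Dixon's criterion, where chance gives about 1 in 20. Lurie accounted for 4 of them, with CCL11 at 7.258 GeTMM in SF, TIMP1 at 801 GeTMM in ISF, and BMX at 52.73 GeTMM in SF and 12.99 GeTMM in ISF. In each of these the direction of the difference between the fluids in Lurie was that of the other horses. RimRun had the lowest mean of the monocyte markers in ISF, 7.06 on the log2 scale, beside 7.84 to 8.27 in the other 6 horses.

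The difference between the fluids itself changed over time, by the test within horses, for the genes chosen as those of lowest FDR. From 48 to 96 hours the change was -1.45 for ACP5, 1.55 for PYGO1, -1.96 for AOX4, -1.93 for S100A1 and 0.683 for PCMT1 on the log2 scale. From 48 hours to 6 days it was -3.96 for MPO, 1.26 for POU2F3, 1.55 for CYTIP, -1.69 for CST7 and -1.97 for HSF4. Without Dealings and Dreamer each of the 5 changes to 96 hours kept its direction, with FDR values of 0.0103 to 0.0177.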

How the results depend on the processing

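The number of DEGs at 48 hours, 1833 (814 higher, 1019 lower), depended on the fold change required, the pairing and single horses. Without a term for horse it was 415 (260 higher, 155 lower), in 1 fit of all 68 libraries 254 without the term (130 and 124) and 665 with it (310 and 355). With library weights it was 2907 (1320 and 1587), with no filter on low values 1076 (487 and 589, over 20871 genes), and when an absolute log2 fold change of 1 or more was required 185 (106 and 79). Leaving out 1 horse gave 800 to 2098 DEGs, 340 to 903 higher and 460 to 1195 lower. The other pseudocounts, filters and scalings and voom on recovered reads gave 1578 to 2088. For the change to 96 hours, 843 genes, the count was 441 with no filter, 12 without pairing by horse, 435 without Dealings and Dreamer, 166 at a change of at least 1 and 388 to 714 with 1 horse left out. For the change to 6 days, 2228 genes, it was 845 without pairing by horse, 860 without Dealings and Dreamer, 730 at a change of at least 1 and 1427 to 2119 with 1 horse left out. Scaling to the same sum moved the median change to 6 days of all genes from 0.001 to -0.126. The share of genes called higher that kept their direction at 6 days, 88.8%, was 93.79% with no filter, 90.99% at 5 GeTMM, 95.77% without pairing, 92.31% and 91.61% in the fits of 68 libraries without and with a term for horse, and 89.38% to 92.35% with 1 horse left out. Of the 157 called genes followed one by one, none reversed, 97 were lost without pairing, 117 in the fit of 68 libraries without a term for horse, 56 on leaving out 1 horse and 0 by voom. At least 1 alternative lost 123 of them. The causes were not tested. With 7 horses and 1 library per horse and fluid, technical spread within a horse is not known, and differences in genes near 1 read per library are not measurable.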

Other observations

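The genes that differed between the fluids at 48 hours were also set beside the cells before culture. Of the genes called higher in ISF, 79.7% stood on average over both fluids above their level at 0 hours, against 50.7% of all genes tested, and of the genes called lower in ISF 27.2% did. SPP1 averaged 11.6 GeTMM before culture and CD8A, PADI4 and CRISP3, lower in ISF, had been higher at 0 hours than at 48 hours in ISF. IGF1, lower in ISF and nearly absent at 0 hours, was an exception. The average over both fluids includes the ISF libraries by which these genes were chosen, so the shares are in part fixed by that choice. No share was taken from SF alone, and no test was made of this relation.

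The differences of single horses correlated with each other across the genes tested at 0.132 to 0.598, a description over genes that are not independent. The lowest values were those of Dealings, 0.132 to 0.333 with the other 6 horses. Leaving out Dealings gave the highest number of DEGs, 2098.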
